A study of Mus musculus with 11 samples.

Results

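Outer hair cells (OHCs) of the mouse cochlea at postnatal day 7 (P7) were defined by 3 measured values: Ocm (oncomodulin) of at least 3.5, Myo6 of at least 1.0 and Fgf8 at 0, each as the deposited natural log value. The rule picked 164 of the 3377 P7 cells and of the 30634 cells in the whole series, 73 (4.11%) in P7 replicate 4 and 91 (5.68%) in P7 replicate 5. The study profiled single cells of the cochlear floor at 4 ages, E14, E16, P1 and P7, with 3′ droplet RNA sequencing, which counts transcripts by their molecular barcodes (unique molecular identifiers, UMIs). All animals were wild-type CD1 mice, and each library was a separate collection pooled from several animals of either sex, so that animals within a library cannot be told apart. The groups used here are P7 OHCs (2 libraries), P7 inner hair cells (IHCs; Myo6 of at least 1.0, Otof and Fgf8 above 0, Ocm under 3.5; 37 and 40 cells), all other P7 cells with Myo6 and Otof at 0 (1298 and 1182 cells), and P1 OHCs of 4 libraries (Myo6 of at least 1.0, Ccer2 of at least 3.0, Fgf8, Slc17a8 and Tbx2 at 0; 139, 114, 167 and 332 cells).

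OHCs are the cochlear amplifier: the motor protein prestin in their side wall changes cell length with voltage, and the movement sharpens and boosts the vibration that the inner hair cells report to the brain. They carry a staircase of actin-filled stereocilia whose tip links pull on transduction channels, and their base receives inhibitory efferent fibres through a nicotinic acetylcholine receptor. In the first postnatal days the cells of the mouse are not yet able to hear, and they acquire prestin, oncomodulin and the mature transduction channel in this period.

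Ocm, Myo6, Fgf8 and Otof chose the cells, and their levels are given as a description only. The members had Ocm values of 3.514 to 5.934 with a median of 4.748, and 136 of them also had a UMI of Otof. The 3 members nearest the gate had 3.514, 3.629 and 3.661, and the 3 cells nearest outside it had 3.478, 3.463 and 3.455. Of 166 P7 cells that reached the Ocm value, none had Myo6 under the gate and 2 had a UMI of Fgf8. Cells lay on both sides of the gate: 13 cells that met the other conditions had Ocm between 2.5 and 3.5, and 18 members had 3.5 to 4. The value was 4.5 or above in 106 members.

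The 2 P7 libraries held similar numbers of UMIs per member, with medians of 7081 and 6739, more than the 4212.5 and 4582 of the other P7 cells and close to the 7396 and 7664 of the IHCs. The P1 OHCs had medians of 5358.5 to 9391. The libraries shared 9 cell barcodes; 1 member carried such a barcode, and no barcode was a member in both. The share of UMIs from the mitochondrial genome was 1.35% in members of replicate 4 and 2.92% in those of replicate 5, and it was also higher in replicate 5 among IHCs (1.71% and 3.33%) and other cells (0.333% and 0.731%). Glial RNA differed as well: Mbp was at 0 and 162 CPM (UMIs scaled to a total of 1000000 per cell) in the members of replicates 4 and 5, and the 10 glial markers summed to 119 and 411.6 CPM, against 1480 and 3888 CPM in the other cells.

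The defining genes of OHCs that the gate did not use were present in both libraries. Slc26a5 (prestin, the motor protein; ENSMUSG00000029015.9, chromosome 5 from 21810655 to 21865604, minus strand, GRCm38) was at 59.6 and 69.8 CPM in the OHCs of replicates 4 and 5 and at 0 and 0.188 CPM in the other cells. No UMI of it was found in either IHC profile, and 0, 0, 0 and 3.14 CPM were found in the 4 P1 OHC profiles. Every P7 OHC profile thus lay above every profile of the 3 other groups. Against the floor of 3 UMIs over all P7 IHCs the level was at least 13.0-fold higher.

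Ikzf2, the transcription factor Helios that directs the OHC programme (ENSMUSG00000025997.13, chromosome 1 from 69531214 to 69687245, minus strand), was at 169.8 and 267 CPM in OHCs, at 10.1 and 13.4 CPM in the other cells and at 0 in both IHC profiles. In P1 OHCs it was at 4.57, 0, 2.98 and 0 CPM. The level in P7 OHCs was at least 42.5-fold above the IHC floor, and higher in replicate 5 than in replicate 4. Aqp11, an intracellular water channel (ENSMUSG00000042797.9, chromosome 7 from 97724006 to 97738289, minus strand), was at 1029 and 811 CPM in OHCs, 39.0 and 45.8 CPM in IHCs, 75.2 and 66.4 CPM in the other cells and 54.7, 41.9, 40.4 and 49.7 CPM in P1 OHCs. Its log2 difference was 4.14 ± 0.23 (SE) against IHCs, 3.52 ± 0.18 against the other cells and 4.03 ± 0.27 against P1 OHCs, on the log2(CPM + 10) scale that all differences here use.

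Promoter windows follow for 4 genes whose levels differ between P7 OHCs and a group named below. They let the sequence beside each start be read with its level. Of the 4, Pcp4 was also high in P7 IHCs (6022 and 8822 CPM) and in P1 OHCs (4153 to 8041 CPM). Each window runs from 250 bases before to 50 after the RefSeq transcription start on build GRCm38.p6 and is written 5′ to 3′ on the gene's strand. Slc26a5 (chr5:21865555-21865854, minus strand) and Aqp11 (chr7:97738198-97738497, minus strand) are higher in OHCs than in IHCs, Pcp4 (chr16:96467356-96467655, plus strand) is higher than in the other cells, and Rprm (chr2:54085503-54085802, minus strand) is lower than in IHCs. Capitals mark matches on either strand to 3 motifs: CAGNTG (an E-box of the type bound by ATOH1), AGGTCA (the half-site of ROR receptors) and TGGGAA (a core bound by Ikaros-family factors).
Slc26a5: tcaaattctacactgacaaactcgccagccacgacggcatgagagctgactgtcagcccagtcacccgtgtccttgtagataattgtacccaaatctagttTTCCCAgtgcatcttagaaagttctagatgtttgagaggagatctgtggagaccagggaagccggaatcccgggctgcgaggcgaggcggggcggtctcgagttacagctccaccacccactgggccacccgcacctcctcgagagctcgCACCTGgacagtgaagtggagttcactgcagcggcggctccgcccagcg
Aqp11: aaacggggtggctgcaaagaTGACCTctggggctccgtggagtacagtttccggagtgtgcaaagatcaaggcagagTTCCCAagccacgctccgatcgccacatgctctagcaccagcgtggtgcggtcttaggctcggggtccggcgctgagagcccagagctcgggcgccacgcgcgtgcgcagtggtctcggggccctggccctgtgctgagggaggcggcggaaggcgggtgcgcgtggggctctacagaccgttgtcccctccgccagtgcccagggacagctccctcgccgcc
Pcp4: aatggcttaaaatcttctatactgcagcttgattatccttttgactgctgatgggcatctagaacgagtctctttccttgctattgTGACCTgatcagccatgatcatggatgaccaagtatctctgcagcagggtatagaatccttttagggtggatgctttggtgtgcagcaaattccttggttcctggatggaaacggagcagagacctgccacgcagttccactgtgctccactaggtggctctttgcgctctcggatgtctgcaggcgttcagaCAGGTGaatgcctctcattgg
Rprm: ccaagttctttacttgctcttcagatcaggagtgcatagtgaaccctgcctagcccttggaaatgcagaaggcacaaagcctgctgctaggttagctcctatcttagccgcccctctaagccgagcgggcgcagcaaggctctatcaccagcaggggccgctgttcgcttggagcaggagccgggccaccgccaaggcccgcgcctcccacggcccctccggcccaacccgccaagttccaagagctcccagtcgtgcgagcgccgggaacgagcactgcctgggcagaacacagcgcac
Slc26a5 held 1 match to CAGNTG and 1 to TGGGAA, Aqp11 1 to AGGTCA and 1 to TGGGAA, Pcp4 1 to CAGNTG and 1 to AGGTCA, and Rprm none. Of all 32851 RefSeq windows of 300 bases, 51.4% held CAGNTG, 16.3% AGGTCA and 25.6% TGGGAA, and a match is only a description. No motif overlapped another in these windows. Ikzf2 and Lmod3 had no entry in the promoter table.

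**Figure D1:**
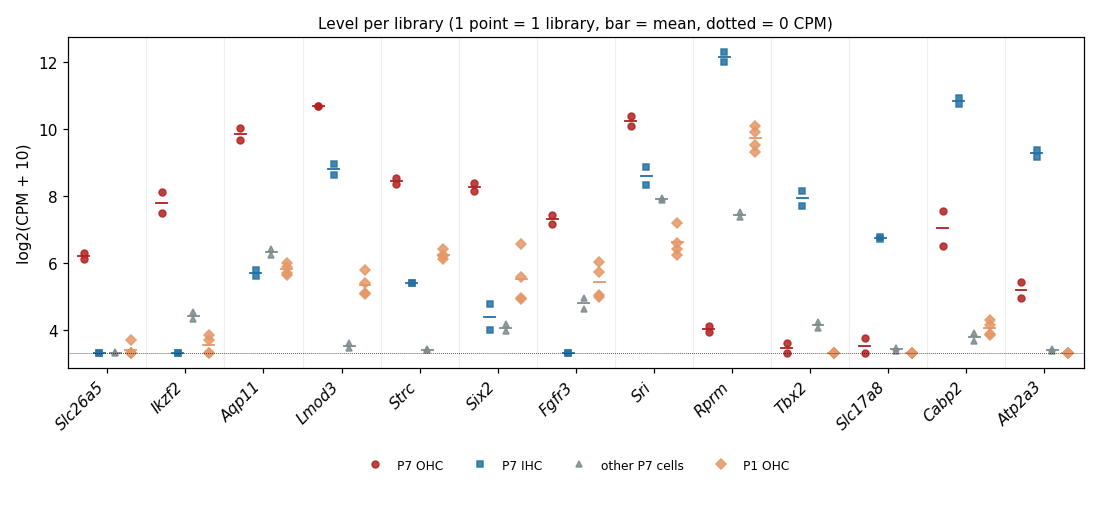
Level of 13 genes as log2(CPM + 10) in each library (1 point per library, bar = mean): P7 OHCs (2 libraries), P7 IHCs (2), other P7 cells (2) and P1 OHCs (4), with the dotted line at 0 CPM. The P7 OHC points of Slc26a5, Ikzf2, Aqp11, Lmod3, Strc, Six2, Fgfr3 and Sri lie above those of every other group, and those of Rprm lie below them.

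Detection per cell was sparse for weakly expressed genes. After each cell was thinned to 1500 UMIs, which left out no cell, Slc26a5 had a UMI in 9.59% of the members of replicate 4 (exact 95% interval 3.94 to 18.8) and 6.59% of those of replicate 5 (2.46 to 13.8), and in 0 of 1298 and 0 of 1182 other cells (exact 95% upper limits 0.284% and 0.312%). The limit of 3 cells, which a count of 0 allows, gives 0.231% and 0.254% for cells with a UMI at this thinned depth. Unthinned, the shares were 27.4% and 37.4% in OHCs and 0% and 0.0846% in the other cells. Ikzf2 had a UMI in 16.4% (8.79 to 27.0) and 30.8% (21.5 to 41.3) of the thinned members and in 1.54% and 1.78% of the other cells (unthinned 54.8% and 75.8% against 3.93% and 5.33%). Lmod3, a leiomodin that caps and nucleates actin filaments, had a UMI in 89.0% of the thinned members of each library and in 0.154% and 0.338% of the other cells, and in all members before thinning. These intervals cover counting error only.

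Among the members themselves, several hair cell genes were found in every cell and stress genes were uneven. Cib2, a calcium-binding partner of the transduction channel, had quartiles of 4577 and 6310 CPM in replicate 4 and 4419 and 6498 CPM in replicate 5, and it was found in every member. Lmod3 had quartiles of 1027 and 2165 CPM in replicate 4 and 948 and 2055 CPM in replicate 5. Pou4f3, the POU-domain factor that hair cells need to survive, was found in every member as well. Hspa1a, an inducible heat shock protein, had quartiles of 1294 and 3652 CPM in replicate 4 and 306 and 2050 CPM in replicate 5, and it was found in 70 and 78 members. Calb1, the calcium buffer calbindin, differed between the libraries, with medians of 5542 and 3198 CPM.

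**Figure D2:**
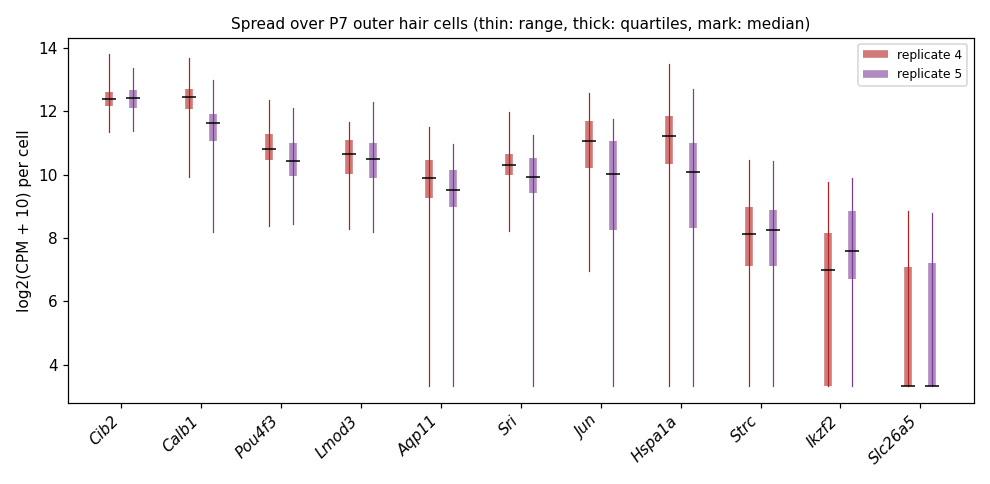
Spread of 11 genes over the single P7 OHCs of replicates 4 (73 cells) and 5 (91 cells), as log2(CPM + 10) per cell: thin line = lowest to highest cell, thick bar = lower to upper quartile, mark = median. Cib2 spans a narrow range in both libraries, Hspa1a and Jun a wide one, and the median of Slc26a5 is at 0 in both.

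Compared with the other P7 cells, OHCs had higher levels of transduction, bundle, efferent receptor and calcium genes and of most respiratory chain subunits, and lower levels of most glycolytic and mesenchymal genes. At an adjusted p under 0.05, 2933 of 8973 genes (32.7%) were higher in OHCs and 2605 (29.0%) were lower, and the median log2 difference of all genes was 0.08. Both groups come from each library, so that library entered as a block. With 2 libraries limma has 1 residual degree of freedom, and the variance here came wholly from the trend over all genes, so that adjusted p-values do not reflect a single gene's own spread. The members were picked from the same values that were tested, and the 3 comparisons share the P7 OHC profiles.

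The mechanotransduction genes that could be tested were higher. Of 9 list members, 7 passed the filter of 10 CPM, and these 7 were higher in OHCs than in the other cells, with a median log2 difference of 4.06. Hair cell genes pass the filter mainly through their OHC level, so that the counts over such lists describe the members and support nothing further. Tmc1, the pore of the mature transduction channel, was at 66.2 and 65.2 CPM against 0.208 and 0.205 CPM in the other cells. Lhfpl5 and Tomt, which bring the channel to the tip link, were at 1151 and 821 CPM (Lhfpl5) and at 459.9 and 529.9 CPM (Tomt). The tip link cadherins Cdh23 and Pcdh15 were at 144 and 178 CPM (Cdh23) and at 50.3 and 46.4 CPM (Pcdh15). Tmc2, the early transduction channel, was at 0 in both OHC profiles.

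Most bundle genes were higher too. Of 32 stereocilia genes tested, 27 were higher and 3 lower, with a median of 2.75. Espn (espin, an actin bundler) was at 911 and 692 CPM in OHCs and 7.00 and 7.12 CPM in the other cells, and Strc (stereocilin, which links the tallest row to the tectorial membrane) at 362 and 316 CPM and 0.824 and 0.601 CPM. Both OHC libraries were far above both libraries of other cells. The 3 lower genes were Actg1 (-1.18 ± 0.16) and Actb (-1.40 ± 0.17), the cytoplasmic actins, and Pls3 (-1.77 ± 0.29), a plastin, and Rdx and Ush1c did not pass the threshold.

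The efferent synapse and the potassium channels were represented by a few strong genes. Chrna9 and Chrna10, the 2 subunits of the efferent receptor, were at 371 and 308 CPM (Chrna9) and at 402 and 372 CPM (Chrna10) in OHCs, and at no more than 1.69 CPM in the other cells. Kcnn2, the SK2 channel that the receptor's calcium opens, was at 172 and 154 CPM against 3.83 and 6.53 CPM. Of 10 efferent genes 4 passed the filter and of 12 potassium channel genes 4, and all of these were higher. Kcnj13, an inward rectifier, was at 771 and 545 CPM against 7.80 and 5.39 CPM in the other cells (log2 difference 5.31 ± 0.21). Kcnma1, the BK channel, was at 8.09 and 10.3 CPM and did not pass the filter.

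Calcium buffers were prominent. Of 16 calcium handling genes tested, 12 were higher and 1 (Necab2, a neuronal calcium-binding protein, -1.72 ± 0.23) lower. Calb1 was at 5615 and 3215 CPM in OHCs against 72.9 and 68.8 CPM in the other cells, Calb2 (calretinin) at 2021 and 1319.6 CPM and Pvalb (parvalbumin) at 1546 and 1838 CPM. Calb1 and Calb2 were higher in replicate 4 and Pvalb in replicate 5. Sri (sorcin, which regulates calcium release channels) was at 1338 and 1084 CPM against 227 and 235 CPM, and Atp2b2, the plasma membrane calcium pump of the bundle, at 217 and 307 CPM against 4.38 and 5.33 CPM.

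Of 17 transcription factor genes tested, 12 were higher and 4 lower. Pou4f3 was at 1947 and 1577 CPM against 1.94 and 0.892 CPM, Gfi1, a repressor hair cells need, at 146 and 141 CPM against 0.145 and 0 CPM, and Six2, a homeobox factor, at 275 and 327 CPM against 5.74 and 8.11 CPM. Isl1 (-2.02 ± 0.18), Sox2 (-1.62 ± 0.27), Eya1 (-0.62 ± 0.24) and Hes6 (-0.54 ± 0.24) were lower. The call of Hes6 was lost under 9 alternatives, with a difference of -0.35 from summed UMIs and -0.29 without replicate 4, and that of Eya1 was lost without replicate 5 (-0.33) and on the mean ln value (-0.11). Of 9 ribbon synapse genes tested, 7 were higher, among them Cacna1d, the Cav1.3 calcium channel of the ribbon, at 222 and 272 CPM against 4.90 and 5.98 CPM, and 1 (Syt1, -2.18 ± 0.28) was lower.

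Energy genes split by pathway. Of 77 respiratory chain subunits tested, 64 were higher, 2 (Uqcrc2 and Uqcrb) were lower and 11 did not pass, with a median of 0.88. Complex I had 33 of 37 higher, complex IV 11 of 11, complex V 13 of 15 and complex III 5 of 8, while none of the 4 complex II genes passed. Ndufb9 was at 1683 and 1782 CPM against 383 and 459 CPM, and Uqcr11 at 1361 and 2644 CPM against 282 and 537 CPM. The 10 mitochondrially encoded genes tested were all higher, with a median of 2.12, beside the mitochondrial shares given above. Among 16 glycolytic genes, 4 were higher and 9 lower with a median of -0.64: Ldha (-2.03 ± 0.19), Pgk1 (-1.82 ± 0.21), Aldoc (-3.54 ± 0.22) and Eno1 (-1.53 ± 0.19) were lower, and Eno2 (2.15 ± 0.28), Pfkp, Pgam1 and Gpi1 were higher. The calls of Uqcrb, Gpi1 and Pgam1 were each lost when 1 library was left out. Slc2a5, the fructose transporter described in the OHC side wall, was at 0 in both profiles.

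Antioxidant genes had no common direction, with 7 of 23 (30.4%) higher and 10 (43.5%) lower. The shares of all genes tested were 32.7% and 29%, and whether those of this and the next 2 lists differ from them was not tested. Prdx5, the peroxiredoxin of mitochondria and peroxisomes, was at 1702 and 1410.3 CPM against 325 and 352 CPM (2.16 ± 0.17), while Prdx1 (-2.09 ± 0.17) and Prdx4 (-2.39 ± 0.21) were lower. Of 10 cytoskeletal genes of the lateral wall, 4 (40%) were higher and 4 (40%) lower. Sptb (an erythroid-type beta spectrin) was at 241 and 354 CPM against 4.87 and 4.26 CPM, and Add3 (-2.49 ± 0.24) was lower. Creatine kinase and adenine nucleotide shuttle genes gave 3 (25%) higher and 5 (41.7%) lower of 12, with Ak1 (2.54 ± 0.28) higher and Ckb (-0.64 ± 0.16) lower. The Ckb call was lost without the library block and on the mean ln value.

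Most tested markers of supporting, mesenchymal and glial cells were lower in the members. Epyc, a proteoglycan of Kölliker's organ, was at 83.5 and 43.2 CPM against 3582 and 2881 CPM and Tectb, a tectorin of the tectorial membrane, at 338 and 220.2 CPM against 10330.1 and 8065 CPM. Of 13 Kölliker's organ and phalangeal markers tested 11 were lower, of 12 pillar and Deiters' cell markers 10, of 7 mesenchymal ones 7 and of 10 glial ones 9. The exceptions that were higher were Calb1, Otog and Fgfr3. Otog, which encodes otogelin of the tectorial membrane, was at 53.9 and 144 CPM in OHCs against 56.7 and 55.0 CPM in the other cells, so that it was higher in replicate 5 alone. Its log2 difference of 0.59 was -0.06 without replicate 5 and -0.45 without cells of more than 3000 genes, and its call was also lost with a pseudocount of 1 CPM, without the library block, with profiles centred by the median ratio and against either other choice of comparison cells (those with Epcam, or all P7 cells outside the gate). Fgfr3, the fibroblast growth factor receptor of lateral supporting cells, was at 134 and 165 CPM in OHCs, 21.3 and 15.02 CPM in the other cells and 0 in IHCs. Of 12 blood and immune markers 9, among them Ptprc, Tyrobp and Cd74, were at 0 in both OHC profiles, and the highest of the others, C1qb, a complement subunit, was at 9.83 and 5.32 CPM in OHCs, 0 and 0.35 CPM in the other cells and 44.6 and 20.7 CPM in IHCs. Of 5 Hensen's and Claudius cell markers tested 3 were lower; of the whole list Pmch, Fst, Bmp4 and Slc26a4 were at 0, and Fbxo2, at 10827 and 8817 CPM, did not pass against the other cells' 9424 and 6995 CPM. Of the endothelial markers, Cldn5, Cdh5, Kdr and Tie1 were at 0, and of the 2 tested Egfl7, at 249 and 155 CPM against 24.3 and 28.2 CPM, was higher and Pecam1, at 54.3 and 62.3 CPM against 60.3 and 57.7 CPM, did not pass. The neuronal markers went the other way: of 4 tested, 3 were higher and 1 lower. The neurofilaments Nefm (65.3 and 67.2 CPM against 2.83 and 4.99 CPM) and Nefl (40.2 and 37.0 CPM against 4.22 and 7.31 CPM) and the stathmin Stmn3 (55.7 and 30.3 CPM against 3.89 and 4.44 CPM) were higher and Tubb3, a neuronal tubulin, was lower (3.60 and 5.96 CPM against 41.4 and 35.7 CPM), while Prph, Gap43 and Nrn1 were at 0 in both OHC profiles. How far RNA of other cells adds to the members' levels was not tested.

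Outside the lists, the largest differences upward were those of Pcp4, a small calmodulin-binding protein, at 7531 and 10123 CPM in OHCs and 7.53 and 12.8 CPM in the other cells, and of Ighm, the constant region gene of the immunoglobulin M heavy chain, at 3404 and 3509 CPM and 2.34 and 4.05 CPM. Ighm was high in IHCs too, at 2373 and 2076 CPM. The tables do not show whether these reads come from Ighm itself or from a neighbouring or antisense transcript, so its values are uncertain. Of the immune markers in the same OHC profiles 9 of 12 were at 0, and C1qb was above the level of the other cells. Acbd7 (an acyl-CoA-binding protein), Ppp1r27 (a phosphatase 1 regulatory subunit), Cd164l2, Homer2 (a synaptic scaffold), Defb25 (a defensin), Hsd17b7 (an enzyme of cholesterol synthesis), AI593442, Ap3b2 (a neuronal AP-3 adaptor subunit), Paqr9, Cpne9 (a copine), Lrrc10b and Faim2 (a Fas apoptotic inhibitor) were among those that followed, with log2 differences of 5.21 to 6.25. Faim2 had no UMI in the 2480 other cells and was at least 1410-fold above the floor. All these upward genes were also at higher levels in IHCs than in the other cells. In the IHCs of replicates 4 and 5 Pcp4 was at 6022 and 8822 CPM and Acbd7 at 2795 and 3783 CPM. Lrrc10b, at 575 and 892 CPM, was higher in IHCs than in OHCs. Hsd17b7 (194 and 191 CPM) and Faim2 (108 and 49.2 CPM) were lower in IHCs than in OHCs.

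Downward, the largest log2 differences outside the lists ran from -6.19 to -4.88. They were those of Gsn (gelsolin, which severs actin filaments, at 65.0 and 4.99 CPM against 3150.1 and 1878 CPM), Mia (289 and 132 CPM against 10504 and 11178 CPM), Lgals1 (a galectin), Ibsp (a bone matrix sialoprotein), Cldn4 and Cldn23 (claudins of tight junctions), Tmsb4x (thymosin beta 4, which binds actin monomers), Sparcl1, Serpina3a and Krt18 (a keratin). All of them but Ibsp were higher in the members of replicate 4 than in those of replicate 5. Each lay below the other cells in both libraries.

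**Figure D3:**
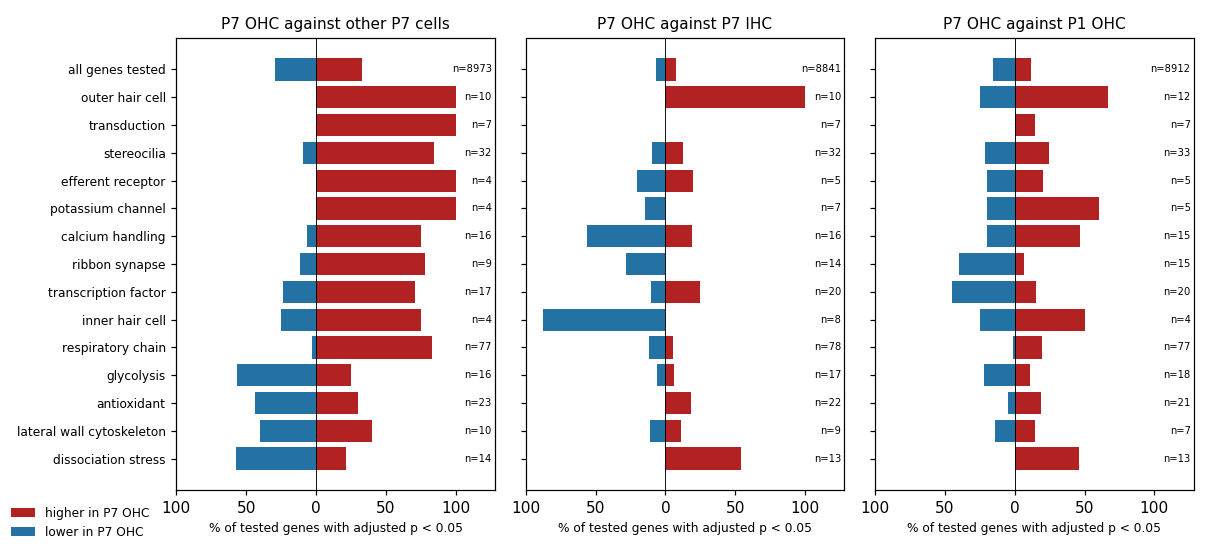
Percentage of tested genes at an adjusted p under 0.05 in each gene list, higher in P7 OHCs to the right and lower to the left, for OHCs against other P7 cells, against P7 IHCs and against P1 OHCs, with the number of genes tested at the right. The first bar holds all genes tested; all 7 transduction genes are higher against other cells, and none passes against IHCs.

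Compared with IHCs, the other sensory cell of the same epithelium, OHCs differed in far fewer genes: 650 of 8841 (7.35%) were higher and 597 (6.75%) lower, and the median of all genes was -0.01. Without the library block, 280 were higher and 220 lower, without replicate 4 the counts were 416 and 392, and without replicate 5 they were 422 and 563. The list of OHC genes, which was written with earlier results on these cells known and is no independent evidence of direction, had all 10 tested members higher. Of 8 IHC genes 7 were lower, and Kcnj13 (0.30 ± 0.15, adjusted p = 0.2 by limma) did not pass, except with the stricter Ocm gate, where it was higher at 0.46. The IHC list was written with the same knowledge, so that its count is no independent evidence of direction either. Fam19a3, Slc17a8 and Tbx2, with 1, 2 and 2 UMIs in OHCs, passed the filter through their IHC level. Markers of other cells moved in both directions beside these counts. Of 10 Kölliker's organ and phalangeal markers tested, Fabp7, Gjb2, Otoa, Tecta and Tectb were lower in OHCs and Calb1 higher. Tectb was at 338 and 220.2 CPM in OHCs and 481 and 489 CPM in IHCs, and Tecta at 7.84 and 27.6 CPM and 121 and 142 CPM. Of 6 glial markers Fabp7 (14.5 and 8.36 CPM against 177 and 219.8 CPM) was lower and Mbp (0 and 162 CPM against 0 and 15.2 CPM) higher. Of 5 mesenchymal markers Otor and Emilin2 were lower and Sparc higher, of 7 pillar and Deiters' cell markers Dkk3 was lower and Fgfr3 higher, and of 2 Hensen's and Claudius cell markers Fbxo2 was higher. The neurofilaments Nefl (40.2 and 37.0 CPM against 554 and 331 CPM) and Nefm (65.3 and 67.2 CPM against 245 and 143 CPM) and C1qb were lower, and neither endothelial marker tested passed. Of these markers Fabp7, Fgfr3, Nefl and Nefm kept their call under all alternatives run. With IHCs required to have Slc17a8, Gjb2 was at -0.05, Tectb at -0.42, Otor at -0.33 and Dkk3 at -0.43, none of which passed, and the calls of Otoa, Emilin2 and C1qb were lost as well. Tectb was at -0.10 on the mean ln value. The Mbp call rests on replicate 5, and it was lost without the block, with a pseudocount of 1 CPM, with the stricter Ocm gate (0.31) and on the mean ln value (0.04). Leaving out either library ended the calls of Sparc, Tecta, Tectb and Gjb2, and those of Calb1 and Fbxo2 were lost without the block. The part of these cells' RNA in the other differences was not tested.

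Of 7 transduction genes none passed the threshold between OHCs and IHCs, and the list's median was -0.02. Cib2 was at 5666 and 5575 CPM in OHCs and 5731 and 5669 CPM in IHCs (log2 difference -0.02 ± 0.06). Lhfpl5 was at 1151 and 821 CPM against 1151 and 861 CPM. Tmc1 was at 66.2 and 65.2 CPM against 53.3 and 30.6 CPM (log2 difference 0.58 ± 0.36, adjusted p = 0.32), and its OHC libraries lay above its IHC libraries without passing. With IHCs required to have Slc17a8 it passed, with a difference of 1.74 (adjusted p = 0.012 by limma).

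Within the bundle, 4 of 32 genes (12.5%) were higher and 3 (9.38%) lower in OHCs, beside 7.35% and 6.75% of all genes tested. Whether these shares differ was not tested. Strc was at 362 and 316 CPM in OHCs and 32.4 and 32.9 CPM in IHCs (3.03 ± 0.28), and Rdx (radixin, 1.15 ± 0.28), Myo1h (a class I myosin, 1.12 ± 0.37) and Actg1 (0.27 ± 0.07) were the other higher ones. Xirp2, an actin-binding protein, was at 42.2 and 31.4 CPM against 325 and 374 CPM in IHCs (-2.95 ± 0.27), Fscn2 (fascin 2, an actin crosslinker) at 117 and 86.9 CPM against 599 and 397 CPM (-2.17 ± 0.22), and Grxcr1 at 99.1 and 75.4 CPM against 233 and 226 CPM (-1.31 ± 0.26). Both OHC libraries lay on one side of both IHC libraries in 6 of these 7 genes; Actg1, at 4517 and 3303 CPM against 3565 and 2889 CPM, overlapped. The calls of Myo1h and Actg1 were lost without the library block and with either replicate left out, and that of Rdx with the stricter Ocm gate.

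Calcium genes divided the 2 hair cell types: 3 of 16 were higher and 9 lower in OHCs. Atp2b2 (1.70 ± 0.26), Sri (1.65 ± 0.14) and Calb1 (0.89 ± 0.08) were higher. Pvalb was at 1546 and 1838 CPM in OHCs and 5290.5 and 6497 CPM in IHCs, and Calb2 at 2021 and 1319.6 CPM against 4489.6 and 3504 CPM. Cabp2, a calmodulin-like regulator of Cav1.3, was at 177 and 82.3 CPM against 1940.1 and 1699.6 CPM (-3.80 ± 0.17), and Atp2a3, the SERCA3 pump, at 33.5 and 20.96 CPM against 568 and 654 CPM (-4.08 ± 0.26). Necab2 (-2.70 ± 0.31), Atp2b1 (-0.61 ± 0.16), Atp2a2 (-0.97 ± 0.30) and Calm2 (-0.55 ± 0.06) were among the other lower ones. Without the library block 2 were higher and 5 lower, and the calls of Calb1, Atp2b1, Atp2a2 and Calm2 were lost. Atp2a2 was at -0.56 without replicate 4.

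At the synapses, the efferent subunit Chrna10 was higher in OHCs (402 and 372 CPM against 143 and 221 CPM, 1.08 ± 0.21) and Chrna1, a muscle-type subunit, lower (93.3 and 68.5 CPM against 287 and 314 CPM, -1.78 ± 0.25), while Chrna9 was at 371 and 308 CPM against 242 and 239 CPM (0.48 ± 0.20, adjusted p = 0.1). Of 14 ribbon synapse genes tested, none was higher and 4 were lower. Rims2 and Slc17a8, with 1 and 2 UMIs in OHCs, passed the filter through their IHC level, so that this count supports nothing further. Slc17a8, the vesicular glutamate transporter VGLUT3 of IHCs, was at 3.56 and 0 CPM against 95.3 and 101 CPM (-3.21 ± 0.42), and Cacna2d2 (-2.19 ± 0.46), Rims2 (-1.73 ± 0.48) and Syt1 (-1.33 ± 0.47) were the others. The calls of Rims2 and Syt1 were lost with IHCs required to have Slc17a8, that of Syt1 also without the block, and that of Chrna10 without replicate 4. Rims2 fell under the filter without replicate 4 and Syt1 without replicate 5, so that neither was tested there. Cacna1d did not pass, at 222 and 272 CPM against 209 and 287 CPM (0.00 ± 0.21). Of the potassium channel genes, Kcna10 was lower (113 and 145 CPM against 244 and 234 CPM, -0.85 ± 0.24), and the other 6 tested, Kcnn2 among them, did not pass. The Kcna10 call was lost without the block and with either replicate left out.

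Among transcription factors, Six2 was at 275 and 327 CPM in OHCs against 17.6 and 6.18 CPM in IHCs (3.87 ± 0.32), and Ikzf2, Insm1 (1.87 ± 0.49), Barhl1 (0.95 ± 0.31) and Pou4f3 (0.79 ± 0.11) were higher too. Tbx2, which specifies IHCs, was at 0 and 2.29 CPM against 199.5 and 277 CPM (-4.47 ± 0.38), and Gfi1 (-0.65 ± 0.24) was lower. The call of Gfi1 was lost under 10 alternatives, leaving out either replicate among them. Those of Barhl1 and Pou4f3 were lost without the block, that of Barhl1 also without replicate 5 (0.52), and that of Insm1 with IHCs required to have Slc17a8. Insm1 fell under the filter without replicate 5 and was not tested there. Rorb, a nuclear receptor, was at 118 and 224 CPM against 108 and 186 CPM and did not pass (0.19 ± 0.25).

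Of 78 respiratory chain genes 4 (5.13%) were higher and 9 (11.5%) lower, with a median of -0.06, and the other 65 did not pass. The shares of all genes tested were 7.35% and 6.75%. Without the library block no respiratory chain gene passed, without replicate 4 there were 1 higher and 5 lower, and without replicate 5 there were 0 and 3. Glycolysis gave 1 higher (Ldhb, 0.94 ± 0.12) and 1 lower (Gapdh, -0.59 ± 0.18) of 17, or 5.88% each. Antioxidant genes gave 4 of 22 higher and none lower: Prdx5 (0.84 ± 0.12), Gsta4 (1.08 ± 0.24), Gpx3 (1.42 ± 0.48) and Txn1 (0.49 ± 0.16). Ak1 (1.03 ± 0.38) was the only shuttle gene of 11 that passed, and of the lateral wall genes Sptb (0.63 ± 0.22) was higher and Ank3 (-0.65 ± 0.23) lower. None of the calls of these 4 antioxidant genes and of Ldhb, Gapdh, Ak1, Sptb and Ank3 held without the library block, and all but that of Ldhb were lost without replicate 5. Without replicate 5 the differences were 0.18 for Sptb and -0.39 for Ank3, and the call of Ak1 held under no alternative except centring by the median ratio.

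Genes of the stress and immediate early response, which dissociation is known to raise, were higher in OHCs in 7 of 13 cases and lower in none. Hspa1a was at 2999 and 1432 CPM in OHCs, 727 and 189 CPM in IHCs and 215 and 105 CPM in the other cells, and in each group replicate 4 was the higher library. Hspa1b was at 93.8 and 84.5 CPM against 28.0 and 5.91 CPM, and Jun at 2334 and 1228 CPM against 1362 and 532 CPM. Without the block 2 of the 13 were higher, without replicate 4 there were 4 and without replicate 5 there were 2, and the Jun call was lost in each of these. Hspa1a and Hspa1b are near-identical genes, so that their split is uncertain. Against the other cells the list went mostly the other way, with 3 of 14 higher and 8 lower, for example Atf3 (-3.49 ± 0.18) and Junb (-2.47 ± 0.17).

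Outside the lists, Urah (a urate pathway hydrolase) was at 362 and 443 CPM in OHCs and 4.20 and 0 CPM in IHCs, Pde6d (a carrier of prenylated proteins) at 1687 and 1109 CPM against 166 and 89.4 CPM, and Car2 (carbonic anhydrase 2) at 1367 and 947 CPM against 144 and 70.3 CPM. Tmem229a, at 241 and 322 CPM, had no UMI in IHCs and was at least 52.5-fold above the floor, as Pgm5 (at least 23.3-fold) and Grp, the gastrin-releasing peptide (at least 16.6-fold), were. Ryr1, the ryanodine receptor calcium release channel of skeletal muscle, was at 142 and 192 CPM against 0 and 3.14 CPM, with 1 UMI in the IHCs (ratio 94.2, counting interval 16.9 to 3720.0). Agpat2 (phospholipid synthesis), Proser2, Pard3b (a polarity protein), Cadm1 (an adhesion molecule), Sept4 (a septin), Zfp503, Stk33 and Mmp23 completed the 15, with differences of 3.22 to 4.08. Urah, Zfp503, Stk33 and Mmp23 had 1 UMI each in IHCs and Agpat2 and Pard3b 2, so that their fitted differences depend on the pseudocount. Car2 and Sept4 were higher in replicate 4 in both hair cell types.

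Downward, Rprm, a p53 target linked to cell cycle arrest, was at 7.44 and 5.55 CPM in OHCs and 5046 and 4109 CPM in IHCs (-8.11 ± 0.21), the widest gap of all genes tested. Dlk2, a non-canonical Notch ligand, was at 10.4 and 13.2 CPM against 502 and 561 CPM. Slc34a3, a phosphate transporter, and Pkhd1l1, a coat protein of stereocilia, had no UMI in the 164 members and were at least 52.8-fold and 33.4-fold lower than in IHCs. Gsn was at 65.0 and 4.99 CPM against 259 and 525 CPM, and Igfbp3, Gpx2, Myl4, Tln2 and Fam155a (1 UMI in OHCs) had differences of -3.08 to -2.79. In all 10 both OHC libraries lay below both IHC libraries. The Igfbp3 call was lost without replicate 5 (-1.83).

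**Figure D4:**
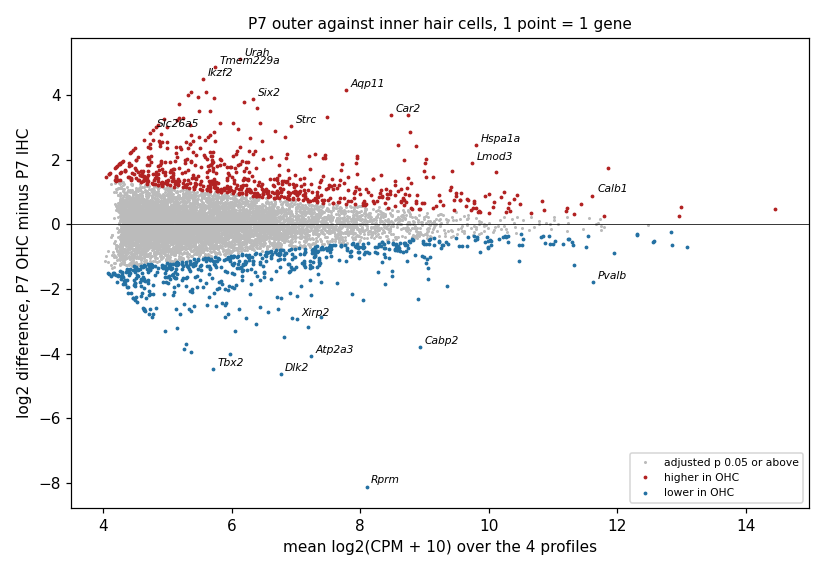
Log2 difference between P7 OHCs and P7 IHCs (vertical axis) against the mean log2(CPM + 10) of the 4 profiles (horizontal axis), 1 point per gene, for 8841 genes: red = higher in OHCs (650), blue = lower (597), grey = adjusted p of 0.05 or above. Urah, Tmem229a and Ikzf2 stand at the top and Rprm, at -8.11, at the bottom.

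Between P1 and P7 the same cell type was compared over 6 days of maturation. P7 OHCs had 1018 of 8912 genes (11.4%) higher and 1364 (15.3%) lower than P1 OHCs, with a median of -0.08. On simulated data this fit made more false calls than its threshold of 0.05 allows, so these counts may hold more false calls than that. With libraries weighted by age, where the simulated false calls stayed within the threshold, 1070 genes were higher and 1420 lower, among them all 1018 and 1364. Prestin, Ikzf2, Aqp11 and Tmc1 rose, 7 of 15 calcium genes rose and 3 fell, and 9 of 20 transcription factor genes fell and 3 rose. Each library holds 1 age, so that age and library preparation cannot be told apart beyond the spread of libraries, and the P1 cells were chosen by other genes than the P7 cells. Ocm, Ccer2, Slc17a8, Tbx2, Myo6 and Fgf8 chose one or the other group and are left out. Without P7 replicate 4 the counts were 551 and 709, and without P7 replicate 5 they were 479 and 706. With P1 OHCs that also lack Neurod6, they were 805 and 1084.

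The OHC list had 8 of 12 genes higher and 3 lower. Lmod3 was at 1640.2 and 1634 CPM at P7 and at 24.1 to 45.4 CPM in the 4 P1 libraries (5.33 ± 0.29). Strip2 (1.82 ± 0.27), Dnm3 (a dynamin, 1.76 ± 0.29), Lbh (2.45 ± 0.30) and Veph1 (1.30 ± 0.37) rose with Aqp11, Ikzf2 and Slc26a5. Cacng2 (an auxiliary AMPA receptor subunit, -1.40 ± 0.30), Calca (CGRP, -1.51 ± 0.31) and Bcl11b (a zinc-finger factor, -1.79 ± 0.35) fell. The P7 values of all these genes lay outside the range of the P1 libraries. The Veph1 call was lost with either P7 library left out and with P1 cells lacking Neurod6 (0.87), and that of Cacng2 without P7 replicate 5.

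Of 7 transduction genes only Tmc1 passed: it was at 66.2 and 65.2 CPM at P7 and at 5.91, 2.81, 0.836 and 0.779 CPM at P1 (2.61 ± 0.29). Among 33 bundle genes 8 (24.2%) rose and 7 (21.2%) fell, beside 11.4% and 15.3% of all genes tested. Strc (2.19 ± 0.27), Cdc14a (a phosphatase, 2.29 ± 0.31), Espnl (an espin-like protein, 1.38 ± 0.29), Loxhd1 (1.43 ± 0.29) and Myo1h (1.38 ± 0.29) were among those that rose. Actb (-1.37 ± 0.25), Whrn (whirlin, -2.02 ± 0.30), Xirp2 (-1.86 ± 0.28), Fscn2 (-1.50 ± 0.29), Grxcr1 (-1.71 ± 0.54) and Clrn1 (-0.92 ± 0.26) were among those that fell. Grxcr1 was at 464, 465 and 498 CPM in P1 replicates 1 to 3 and at 76.7 CPM in P1 replicate 4, beside 99.1 and 75.4 CPM at P7; in P1 IHCs of that library it was at 61.0 CPM as well. The calls of Grxcr1 and Clrn1 were lost with either P7 library left out, and that of Espnl without P7 replicate 5.

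Calcium and channel genes that rose included Sri (1338 and 1084 CPM against 66.2 to 136 CPM at P1), S100a1 (1.94 ± 0.27), Cabp2 (2.98 ± 0.33), Calb1 (1.49 ± 0.39), Calb2 (1.09 ± 0.34), Calm2 and Atp2b2 (1.10 ± 0.28), 7 of 15 tested. Anxa4, an annexin, was at 358 to 713 CPM at P1 and 32.7 and 12.7 CPM at P7 (-4.02 ± 0.33) and fell, as Atp2b1 and Necab2 did. With either P7 library left out 4 calcium genes rose and 1 fell: the calls of Calb2, Calm2, Atp2b1 and Necab2 were lost each time, that of Calb1 without P7 replicate 4 and that of Atp2b2 without P7 replicate 5. With P1 cells lacking Neurod6, Calb2 was at 0.62 and Necab2 at -0.40, and neither passed. Kcnj13 (3.82 ± 0.37), Kcnn2 (1.78 ± 0.28) and Kcna10 (1.41 ± 0.37, lost with either P7 library left out) rose, and Kcnh7 fell (-2.91 ± 0.33). Chrng, the fetal gamma subunit of the muscle-type receptor, was at 65.7, 64.0, 53.8 and 37.1 CPM at P1. It had no UMI at P7, which is at least 20.4-fold lower. The efferent receptor subunits Chrna9 (0.11 ± 0.25) and Chrna10 (0.79 ± 0.32, adjusted p = 0.082 by limma) did not pass. Atp2a3 had no UMI in the 752 P1 OHCs, and its P7 level was at least 39.9-fold above the P1 floor.

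Of 20 transcription factor genes 9 fell and 3 rose. Atoh1, the factor that starts hair cell development, was at 446, 806, 613 and 831 CPM at P1 and 24.1 and 7.53 CPM at P7 (-4.76 ± 0.33), and Hes6, which acts beside it, at 732 to 1751 CPM at P1 and 40.8 and 42.7 CPM at P7 (-4.48 ± 0.32). Lhx3 (-2.08 ± 0.33), Barhl1, Nhlh1 (-2.23 ± 0.32), Casz1 (-1.98 ± 0.27), Sox2 (-1.67 ± 0.33), Eya1 (-1.33 ± 0.32) and Bcl11b were the others that fell, and the Eya1 call was lost without P7 replicate 5. Rorb (118 and 224 CPM against 0 to 1.49 CPM at P1), Six2 (2.76 ± 0.40) and Ikzf2 rose. Pou4f3 (0.20 ± 0.27) and Gfi1 (-0.43 ± 0.34) did not pass.

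Of 15 ribbon synapse genes 6 fell and 1, Cacna1d (1.14 ± 0.29), rose. Nrxn3 (-1.54 ± 0.29), Syt1 (-2.02 ± 0.34), Cplx1 (a complexin, -1.79 ± 0.30), Rims2 (-1.33 ± 0.29), Cacna2d2 (-1.05 ± 0.28) and Rimbp2 (-0.95 ± 0.30) were the 6. The calls of Cacna1d and Rimbp2 were lost with either P7 library left out and with P1 cells lacking Neurod6, and those of Rims2 and Cacna2d2 without P7 replicate 4. The neuronal markers Nefl (-2.24 ± 0.39), Nefm (-2.81 ± 0.26) and Stmn3 (-1.74 ± 0.30) fell with them.

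Respiratory chain genes had 15 of 77 higher and 1, Sdhc, lower, with a median of 0.50 against -0.08 for all genes. The 15 depended on single libraries: there were 6 without P7 replicate 4, 1 without P7 replicate 5, 28 without P1 replicate 1, 7 without P1 replicate 2 and 9 without P1 replicate 3, and the Sdhc call was lost in each of these. Cox5a was at 1398 and 1697 CPM at P7 and 679, 635, 599 and 504 CPM at P1 (1.34 ± 0.25). Ndufa1 was at 656 and 1394 CPM at P7 and 443, 218, 201 and 168 CPM at P1, and its P7 replicate 5 and P1 replicate 1 were the highest libraries of their ages, as they were for Uqcr10 and Uqcr11. Glycolysis had 2 of 18 (11.1%) higher and 4 (22.2%) lower, among them Pgam2 (-3.92 ± 0.37), beside 11.4% and 15.3% of all genes tested. Antioxidant genes had 4 of 21 (19%) higher, among them Gsta4 (3.28 ± 0.37) and Prdx5 (1.84 ± 0.25), and 1 (4.76%) lower (Txnrd1, -1.66 ± 0.26). Of 12 shuttle genes 1 (8.33%) rose (Slc25a4, 0.79 ± 0.25), and of 7 lateral wall genes Sptb (1.10 ± 0.27) rose and Ank3 fell, 14.3% each. Without P7 replicate 4 Slc25a4 was at 0.49 and did not pass, without P7 replicate 5 the call of Sptb was lost, and that of Ank3 was lost in both cases.

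Stress response genes were higher at P7 in 6 of 13 cases and lower in none. Hspa1a was at 2999 and 1432 CPM in P7 OHCs and 1.09, 9.84, 0.836 and 0.834 CPM in P1 OHCs (7.36 ± 0.36), and it was at 215 and 105 CPM in the other P7 cells and 3.52 to 25.8 CPM in the other P1 cells. Jun (2.89 ± 0.48) and Fosb (3.02 ± 0.38) were higher as well. Of the markers of other cells, 3 of 10 tested of Kölliker's organ and phalangeal cells rose and 3 fell, 3 of 10 of pillar and Deiters' cells rose and 2 fell, 2 of 4 of glia rose and 1 fell, 2 of 3 of mesenchyme rose, 1 of 2 of Hensen's and Claudius cells (Fbxo2, 10827 and 8817 CPM against 1909 to 2609 CPM at P1) and 1 of 2 of endothelium (Egfl7, 249 and 155 CPM against 59.9 to 97.2 CPM). The Egfl7 call was lost without P7 replicate 4. Without P7 replicate 5 no glial marker passed, but Erbb3 was not tested there. Erbb3 was at 27.4 and 26.8 CPM at P7 and 2.02 to 4.01 CPM at P1. It fell under the filter of 10 CPM with either P7 library left out. The glial marker Erbb3 (1.54 ± 0.26) and the mesenchymal Sparc (2.48 ± 0.26) and Otor (2.17 ± 0.43) were higher in P7 OHCs, and Col1a2 and Col3a1 stayed at no more than 10.3 CPM. The part of the stress and marker genes in the other differences between the ages was not tested.

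Outside the lists, the largest rises were those of Ighm (3404 and 3509 CPM at P7 and 26.8, 0, 0 and 1.33 CPM at P1, with the same doubt about the transcript), AI593442, Car2, Efhd2 (a calcium-binding EF-hand protein), Car7 (a second carbonic anhydrase), Kalrn (a guanine nucleotide exchange factor), Proser2, Bhlhe40 (a repressor of the clock family), Trak1 (an adaptor that moves mitochondria), Sept4, Fndc5, Zfp423, Nsg2, Ryr1 and Sh2d6. Car2 was at 1367 and 947 CPM against 26.1, 17.01, 23.0 and 26.4 CPM, and Trak1 at 459 and 536 CPM against 13.0, 6.62, 18.8 and 22.8 CPM. Ighm, Car7, Kalrn and Ryr1 were at no more than 4.05 CPM in the other cells of both ages, which do not include IHCs. In P7 IHCs Ighm was at 2373 and 2076 CPM, Car7 at 267 and 319 CPM, Kalrn at 73.7 and 115 CPM and Efhd2 at 208 and 226 CPM. These genes were at no more than 49.8 CPM in P1 IHCs. Ryr1 was at 0 and 3.14 CPM in P7 IHCs. Bhlhe40, Sept4, Fndc5 and Sh2d6 were also higher at P7 than at P1 in the other cells, Sh2d6 at 105 and 106 CPM against 0.129 to 1.68 CPM.

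The largest falls outside the lists were those of Ccl21a, Nnat (neuronatin), Rprm, Psat1 (an enzyme of serine synthesis) and Parp1 (a DNA repair enzyme). Dlk2, Gng8 (a G protein gamma subunit), Cdkn1c (the cell cycle inhibitor p57), Slc52a3 (a riboflavin transporter) and R3hdml followed. Psat1 was at 686, 677, 795 and 756 CPM at P1 and 4.95 and 4.30 CPM at P7, and Rprm was at 1089, 960.5, 733 and 631 CPM at P1 and 7.44 and 5.55 CPM at P7. Rprm was at 5046 and 4109 CPM in P7 IHCs and at 2244 to 4309 CPM in P1 IHCs, so that the 2 hair cell types stand far apart in it at P7. Ccl21a belongs to a family of near-identical copies and is uncertain as a single gene; it had no UMI in P7 OHCs (at least 402-fold lower). Gng8 (at least 137-fold lower) and Slc52a3 (at least 108-fold lower) had none either. Nnat had 1 UMI and R3hdml 2 in P7 OHCs, with ratios of 1040 (counting interval 186 to 41000) and 167 (46.2 to 1380). In the other cells Nnat was at 172 to 569.5 CPM at P1 and 38.8 and 30.3 CPM at P7, and Cdkn1c was at 607 to 1980.3 CPM at P1 and 182 and 221 CPM at P7. Unlike Rprm, several of these genes were also lower in P7 than in P1 IHCs. In IHCs Nnat (181 to 719 CPM at P1), Gng8 (240 to 562 CPM) and Slc52a3 (139 to 231 CPM) were at no more than 3.49 CPM at P7. Psat1 was at 501 to 617 CPM in P1 IHCs and 57.5 and 54.1 CPM in P7 IHCs.

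**Figure D5:**
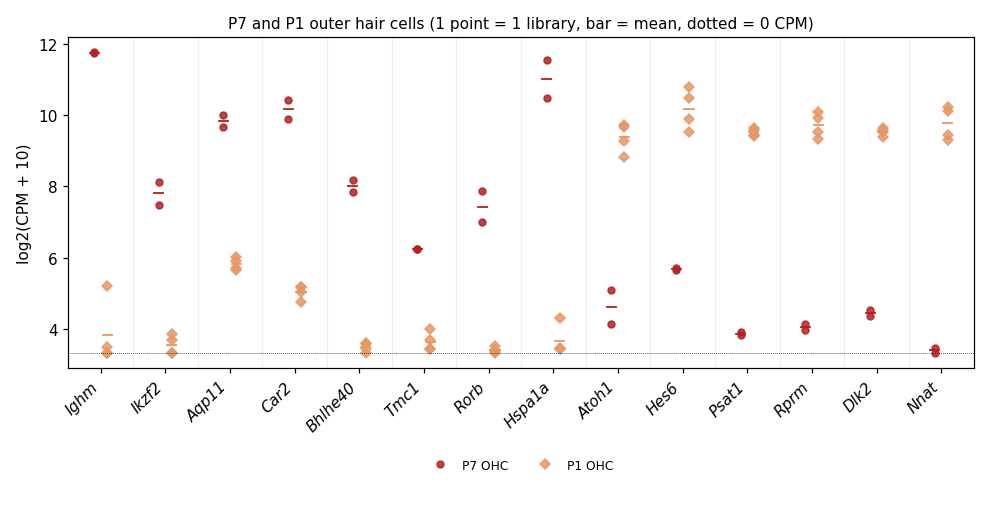
Level of 14 genes as log2(CPM + 10) in P7 OHCs (2 libraries) and P1 OHCs (4 libraries), 1 point per library, bar = mean, dotted line = 0 CPM. The 8 genes from Ighm to Hspa1a lie higher at P7 and the 6 from Atoh1 to Nnat lower, with no overlap between the ages.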

How the data were processed

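Single cochlear cells were captured on a 10x Genomics Chromium 3′ system; per the submitters' processing notes, reads were handled with Cell Ranger 2.1.1 on build mm10 and Seurat 2.0. The authors deposited 1 table per age of natural log (ln) values, ln(1 + 10000 × UMIs / total UMIs of the cell). The methods name filters on UMIs, genes, mitochondrial and stress gene content, but cells of more than 3000 genes remain in the tables. The values were turned back to CPM and averaged over the cells of each class in each library, which gave 1 profile per class and library. Because the unit is ln, no count model was used.

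Profiles were compared as log2(CPM + 10) with limma 3.58.1 in R 4.3.3 (moderated test with a mean trend, two-sided, Benjamini-Hochberg over all genes tested, threshold 0.05), after dropping genes whose mean level over the profiles was under 10 CPM. Differences are given ± SE of the fit. Gate genes were fitted but left out of counts. Within P7, library was a block, because both classes came from the same tube of cells; the library differences of OHCs correlated with those of the other cells at 0.272 over 8976 genes and with those of IHCs at 0.193 over 8845 genes. With 2 P7 libraries each P7 mean rests on 2 profiles of 37 to 1298 cells, and libraries are the replicates, not cells. The P7 libraries held 8928818 and 8567317 UMIs, and the P1 libraries 11829392 to 23523802.

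The members and gene lists were chosen with earlier results of these data known. Outside the lists, gate genes and mitochondrial, ribosomal, haemoglobin, Gm-numbered and Rik genes, the 15 largest differences up and 10 down among genes past the threshold are named, where every library had the same direction (within P7) or the ages did not overlap. List members are named to describe their list, by level or textbook role. Floors were 3 UMIs over a group. No doublet caller was run, and leaving out cells of more than 3000 genes was one alternative. Other alternatives were the pseudocount, the filter, summed UMIs, the mean ln value, a stricter Ocm gate, other comparison cells, IHCs required to have Slc17a8, P1 OHCs lacking Neurod6, no block and leaving out each library. Centring by the median ratio and weighting libraries by age were chosen after seeing the data. A few items, and results that rest on them, are not reported here. The fits were tested on simulated data, 1 simulated table per fit. The share of false calls there was somewhat above the threshold in both fits within P7 and well above it for P7 against P1. It was within the threshold for P7 against P1 with libraries weighted by age. In the simulated P7 tables both classes of a library shared the same library difference, and 1 setting of spread served all genes. In the data these library differences correlated at only 0.272 and 0.193, so that the simulated shares cannot show those of the data within P7. Gene positions are from GENCODE M21 and promoters from RefSeq, both on GRCm38.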

Additional observations from a re-analysis of the deposited data

Results flagged for a closer look

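In the 4 P1 libraries, 103 genes named in the comparison of ages were examined for a single library far from the others, and 7 stood out; chance alone marks about 1 in 20 groups. The gap of the outlying library to its nearest neighbour, divided by the whole range, was 0.961 for Grxcr1 and 0.91 for Parp1, both low in P1 replicate 4. It was 0.962 for Hspa1a, high in P1 replicate 2, and 0.905 for Ighm, high in P1 replicate 1. It was 0.93 for Myo1h, low in P1 replicate 3, and 0.954 for Fbxo2, high in P1 replicate 1. It was 1 for Slc26a5, which was at 3.13 CPM in P1 replicate 4 and at 0 in the other 3 libraries.

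For 12 genes the P7 OHC libraries lay on one side of the P1 OHC libraries, while the other cells differed between the ages in the opposite direction. The difference between the 2 changes was not tested. The other cells are a mix of cell types with unlike marker levels at the 2 ages. In them Mbp was at 386.5 and 1295 CPM at P7 and 7.53 to 14.4 CPM at P1, and Crabp1 at 0.321 and 0.954 CPM against 642 to 1546 CPM. How far this mix enters their differences was not tested. Rprm had a log2 difference of -5.68 in OHCs and 2.21 in the other cells. Lmod3 had 5.33 and -0.91, Aqp11 4.03 and -0.742, and Zfp423 3.88 and -0.395. Gsta4 had 3.28 and -1.69, Six2 2.76 and -1.76, Erbb3 1.54 and -0.645, and Calb1 1.49 and -3.17. Ikzf2 had 4.25 and -0.417, Egfl7 1.34 and -0.419, Necab2 -1.11 and 2.39, and Ank3 -0.85 and 0.211.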

How the results depend on the processing

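Against the other P7 cells, 4000 genes were lower (2605 as reported) and 3466 higher without a filter on low values, where 20744 genes were tested. On the mean ln value, 63.9% of the calls were higher, against 53.0% as reported. Leaving out 1 library gave 2559 to 2692 higher and 2180 to 2372 lower. Against IHCs, where library pairs the classes, the fit without the block gave 280 higher and 220 lower; leaving out 1 library gave 416 to 422 higher and 392 to 563 lower, the lone P7 sample being assumed to vary like the P1 profiles. With IHCs also required to have Slc17a8, 335 were lower and 457 higher. For P7 against P1, leaving out 1 library gave 479 to 1254 higher and 706 to 1479 lower; both P7 libraries moved the counts by over 1.5 times. No paired analysis was possible because a library holds 1 age. Weighting libraries by age gave 1070 higher and 1420 lower, and dropping the filter on low values gave 1225 higher and 1214 lower.

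Unthinned shares of members with a UMI were 27.4% and 37.4% for Slc26a5, 54.8% and 75.8% for Ikzf2 and 100% and 100% for Lmod3. Of the named genes only Otog, higher in OHCs than in the other cells by 0.593, reversed: it was at -0.45 without cells of more than 3000 genes and at -0.0622 to 1.25 with 1 library left out, the lower value without replicate 5. Some named genes with a fitted difference kept their side of the threshold under all alternatives in which they were fitted. They were 66 of 73 against other cells, 52 of 91 against IHCs and 81 of 103 against P1. A gene under the filter of 10 CPM in an alternative was not fitted there. Against P1, Erbb3 and Otor were not fitted without P7 replicate 5. Calls lost under 4 or more alternatives were those of Hes6, Otog and Uqcrb against the other cells; of Actg1, Ak1, Ank3, Atp2a2, C1qb, Dkk3, Gapdh, Gfi1, Gjb2, Gpx3, Kcna10, Mbp, Myo1h, Sptb, Syt1, Tectb and Txn1 against IHCs; and of Ank3, Calb2, Calm2, Grxcr1, Necab2, Rimbp2, Sdhc, Slc25a4 and Veph1 against P1. Kcnj13 and Tmc1 passed against IHCs under 1 alternative each. Depth limits weakly expressed genes such as Slc26a5 and Tmc1, and 37 and 40 IHCs limit the comparison with IHCs.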
